A study of Mus musculus with 384 samples.

Results

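The TNF family and costimulatory assays of a single-cell quantitative PCR panel were 6 of its 96 assays. They were taken by name: the receptors Tnfrsf1a (CD120A), Tnfrsf1b (CD120B) and Tnfrsf4 (CD134), the ligands Tnfsf4 (CD252) and Tnfsf8 (CD153), and the costimulatory receptor Icos (CD278). The cells were common lymphoid progenitors (CLPs), bone marrow cells that can still form B, T, natural killer and dendritic cells, from wild-type C57/Bl6 mice. All groups came from the same gate: lineage and B220 negative, Flt3 and Il7r positive, Kit and Sca1 low. Each of 4 plates, P0 to P3, held 90 wells with 1 cell, 1 well with 20 cells, 1 well with 10 cells and 4 wells without reverse transcription (no-RT), which show what is amplified without cDNA. The labels give neither the age of the mice nor whether plates came from separate animals. Every limma p-value here therefore sets a value against its spread over plates, and that spread may be technical.

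TNF is a secreted cytokine that binds a pair of receptors. Tnfrsf1a carries a death domain and is made by most cell types, whereas Tnfrsf1b lacks a death domain and is found mainly on blood and endothelial cells. Tnfrsf4 (OX40) and its ligand Tnfsf4 (OX40L), and Tnfsf8, the ligand of CD30, act between activated T cells and antigen-presenting cells. Icos is a CD28 relative that activated T cells carry and whose ligand is on B cells and dendritic cells. The question asked of these data was how many single progenitors transcribe each gene, whether a receptor and a ligand are in the same cell, and how the genes relate to Ebf1, Ly6d and Pax5. Ebf1 is an early B lineage transcription factor, Ly6d a surface protein of B-biased CLPs, and Pax5 the B lineage commitment factor.

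The genes lie at chr6:125349723-125362483 (Tnfrsf1a), chr4:145212368-145246870 (Tnfrsf1b), chr4:156013595-156016613 (Tnfrsf4), chr1:161395438-161418206 (Tnfsf4), chr4:63831202-63861508 (Tnfsf8) and chr1:60960773-61000322 (Icos) in GRCm38.p6. Where the assays lie within them was not analysed here. The RefSeq table of upstream windows held 4 of the 6 genes. The 250 bases before the annotated start are printed for the 3 receptors, because their detection in these cells ran from the most to nearly the least frequent of the 6 genes. Capitals mark CG, a motif that reads the same on both strands. Tnfrsf1b had 12 CG, Tnfrsf1a 9 and Tnfrsf4 5, and of all 32851 windows 33.5%, 40.3% and 55.6% held as many, in that order of genes. The median window held 6, with quartiles of 2 and 16, so none of the 3 stood outside the common range. The Tnfrsf4 window belongs to an annotated start that lies inside the gene's outer limits.
Tnfrsf1b, chr4:145246871-145247120, minus strand: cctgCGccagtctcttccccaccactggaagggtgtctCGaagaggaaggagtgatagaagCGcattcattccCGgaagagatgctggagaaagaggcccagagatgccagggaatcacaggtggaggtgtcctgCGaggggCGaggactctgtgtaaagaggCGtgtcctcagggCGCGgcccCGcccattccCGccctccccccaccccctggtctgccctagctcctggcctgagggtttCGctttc
Tnfrsf1a, chr6:125349473-125349722, plus strand: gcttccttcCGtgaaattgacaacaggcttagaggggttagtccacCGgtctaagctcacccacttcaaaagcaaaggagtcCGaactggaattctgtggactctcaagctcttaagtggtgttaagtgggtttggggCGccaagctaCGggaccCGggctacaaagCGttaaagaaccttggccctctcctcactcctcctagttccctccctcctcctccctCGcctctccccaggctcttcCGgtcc
Tnfrsf4, chr4:156013445-156013694, plus strand: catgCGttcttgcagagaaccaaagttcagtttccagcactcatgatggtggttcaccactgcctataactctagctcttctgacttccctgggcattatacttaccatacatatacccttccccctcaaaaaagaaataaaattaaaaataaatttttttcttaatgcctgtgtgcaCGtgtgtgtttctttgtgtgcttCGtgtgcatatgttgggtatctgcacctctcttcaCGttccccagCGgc

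A value is a Ct, the cycle at which the pre-amplified product crossed the detection threshold. A Ct below 28 counted as a product. The level of a gene is 28 minus Ct, so 1 unit is 1 cycle, nominally a doubling. Of 360 single-cell wells, 13 failed quality control, which left 86 cells on P0 and 87 on each other plate, with 22 to 54 assays detected per cell (median 43). No-RT wells gave a product for a median of 6.5 assays. Of the sort markers, the panel's matched assay was Kit, found in 97.4% ± 1.1 of the passing cells (shares here are means ± SD over 4 plates). Of 7 T lineage assays, Cd3e, a subunit of the T cell receptor complex, and Cd2 were in 0 of these cells, which allows a share of up to 0.865%, and Cd8a was in 2. The other 4 were CD90.2 in 22.8% ± 5.1, Gata3 in 14.1% ± 2.4, Cd4 in 10.9% ± 3.5 and Cd5 in 9.78% ± 6.2. Among the 7 natural killer and innate lymphoid assays, Tbx21 was in 0 cells, Itgb7 in 7.50% ± 3.4, Il2rb in 14.4% ± 3.3 and Klrb1c in 13.3% ± 4.8. Others were more frequent, Id2 at 43.8% ± 9.2, Nfil3 at 80.1% ± 5.1 and Cd244a at 90.8% ± 2.5. Nfil3 also came up without cDNA, in 12 of the 16 control wells. In 4 of the cells, 3 on P0 and 1 on P1, the panel's 4 reference assays came up more than 5 cycles later than the plate's median. The 10-cell well of P0 had a product for 29 assays, against 68 to 78 in the other pooled wells.

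Both TNF receptors and Icos were detected in most progenitors, Tnfsf8 in a minority, and Tnfrsf4 and Tnfsf4 in few. The sensitivity of each assay is not known, so a share is a share of cells detected. Tnfrsf1b was detected in 75.6%, 81.6%, 83.9% and 75.9% of cells on plates P0 to P3. Its mean was 79.2% ± 4.2, with an exact 95% interval over all cells of 74.6% to 83.4%, and 0 of 16 no-RT wells had a product. Tnfrsf1a was detected in 60.5%, 59.8%, 57.5% and 58.6% of cells. Its mean was 59.1% ± 1.3 (interval 53.7% to 64.3%), against 0 of 16 no-RT wells. On every plate the share of Tnfrsf1b lay above that of Tnfrsf1a, by more than the spread of either over plates. These intervals, and the limits given for counts of 0, cover counting error only.

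Icos was detected in 55.8%, 54.0%, 54.0% and 58.6% of cells. Its mean was 55.6% ± 2.2 (interval 50.2% to 60.9%), against 0 of 16 no-RT wells. Icos and Tnfrsf1a were neighbours in the order of the 96 assays, at ranks 37 and 36, and on P3 their shares were equal, so their order is not separated from the spread. Above Tnfrsf1a stood Ccr7 at 69.8%, and below Icos stood Ly86 at 55.0%. Tnfrsf1b, at rank 29, stood between Nfil3 at 80.1% and Cd180 at 79.0%, both closer to it than its own SD.

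Tnfsf8 was detected in 18.6%, 17.2%, 28.7% and 21.8% of cells. Its mean was 21.6% ± 5.1, or 75 cells (interval 17.4% to 26.3%), against 0 of 16 no-RT wells. It was highest on P2, and it stood at rank 57 between Csf1r at 22.2% and Il3ra at 18.7%. Tnfrsf4 was detected in 9.30%, 2.30%, 5.75% and 12.6% of cells, a mean of 7.50% ± 4.5 or 26 cells (interval 4.95% to 10.8%). The share on P3 was the highest and that on P1, with 2 cells, the lowest. Of the no-RT wells, 1 of 16 had a Tnfrsf4 product, on P0, and its level of 13.63 lay within the range of the cells, 8.58 to 16.82. Tnfsf4 was detected in 4 cells of P0 and 1 cell of P2, and in 0 of 87 cells on P1 and on P3, which allows up to 3.45% on each. Its mean was 1.45% ± 2.2 (5 cells, interval 0.469% to 3.33%), and 0 of 16 no-RT wells had a product.

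**Figure D1:**
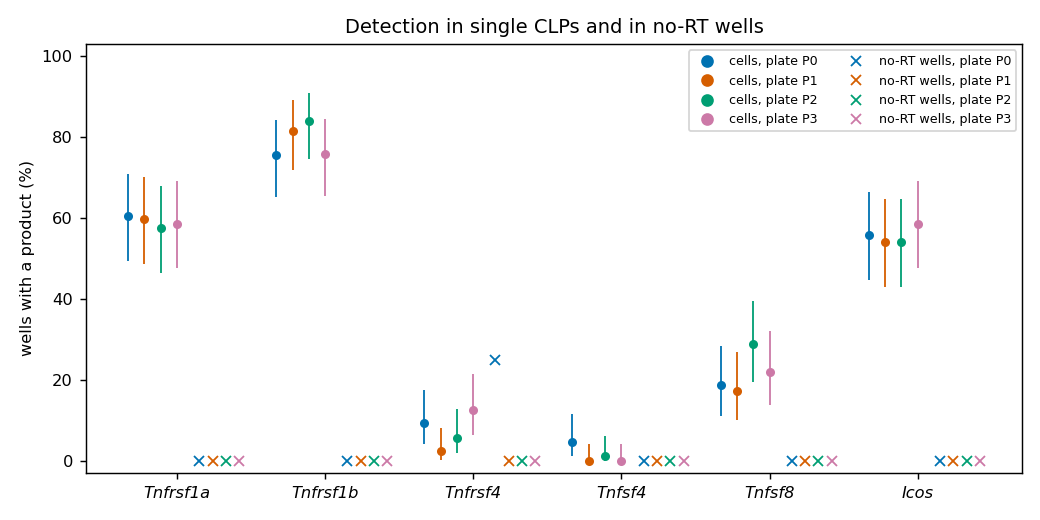
Share of wells with a product (%, vertical axis) for each gene. Filled points are the single cells of 1 plate with exact 95% intervals, and crosses to their right are the 4 no-RT wells of that plate. Tnfrsf1b, Tnfrsf1a and Icos lay above 50% on every plate, and the no-RT wells lay at 0 except 1 of 16 for Tnfrsf4.

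Detection in cells exceeded that in no-RT wells for 4 of the 6 genes by limma over all assays, Tnfrsf1a (adjusted p = 3.30e-11), Tnfrsf1b (6.23e-09), Icos (3.01e-10) and Tnfsf8 (1.63e-06). Over the panel 84.1% of the 88 assays tested passed, so a call was the common outcome. For each of these 4 genes the no-RT share was 0 on every plate, from 4 wells each. Those shares added no spread, and the counting error of so few wells does not enter the limma p-value. Tnfrsf4 (adjusted p = 0.354) and Tnfsf4 (0.162) did not pass. Without P0, the plate with the no-RT product, Tnfrsf4 passed (adjusted p = 0.00870). An exact test on wells within plates called 52.3% of the assays, Tnfrsf1a (adjusted p = 3.38e-06), Tnfrsf1b (1.86e-10) and Icos (1.10e-05) among them, but not Tnfsf8 (0.0890), Tnfrsf4 (1) or Tnfsf4 (1). That exact test takes single wells as its units, so its p-values do not measure the spread over plates. A stricter criterion asked the share on each plate to exceed the exact 95% upper limit from the 16 no-RT wells. It was met by 53.4% of the assays, and by Tnfrsf1a, Tnfrsf1b and Icos of the 6. For Tnfsf8 that limit was 20.6%, above its shares on P0 and P1.

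In the cells with a product, the plate medians of a gene lay within 2 cycles of one another. The median level of Tnfrsf1a was 12.05, 11.24, 11.79 and 11.34 cycles on P0 to P3 (mean 11.60 ± 0.38), and that of Icos was 11.44, 10.64, 11.24 and 10.75 (11.02 ± 0.38). For both genes P0 was highest and P1 lowest. Tnfrsf1b had medians of 8.96, 7.09, 8.01 and 7.87 (7.98 ± 0.77), again highest on P0 and lowest on P1. Tnfsf8 had medians of 10.61, 10.51, 10.19 and 10.26 (10.39 ± 0.20), the smallest SD over plates of the 5 genes found on all plates. Tnfrsf4 had medians of 13.20, 14.04, 13.11 and 12.19 (13.13 ± 0.76), that of P1 from 2 cells. The Tnfsf4 cells of P0 had levels of 12.36, 11.18, 11.35 and 13.06, and the cell of P2 had 13.50. Since the efficiency of each assay is not known, these levels are not compared between genes.

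Among cells, the SD of the level was 1.28 cycles for Tnfrsf1a, 1.41 for Icos, 1.46 for Tnfrsf1b, 1.56 for Tnfsf8 and 1.64 for Tnfrsf4. The median SD over the 73 assays with at least 20 positive cells was 1.595. Of those assays, 9 had a smaller SD than Tnfrsf1a. A level under 5 was found in 1 Tnfrsf1a cell, 4 Tnfrsf1b cells, 3 Tnfsf8 cells and 1 Icos cell, and 1, 2, 1 and 1 of these, in the same order, were among the 4 cells with late reference assays. No Tnfrsf4 or Tnfsf4 cell had a level under 5.

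Within a plate, the levels of Tnfrsf1a and Tnfrsf1b in the 37 to 45 cells with both had a Spearman rho between -0.10 and 0.17. Those of Tnfrsf1a and Icos, in 27 to 32 cells, had a rho between 0.01 and 0.42. The level of Icos and the mean level of the reference assays had a rho between 0.20 and 0.60, against 0.14 to 0.45 for Tnfrsf1a and 0.03 to 0.39 for Tnfrsf1b. All genes of a cell share its cDNA and its pre-amplification, so these values describe the cells and were not tested.

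**Figure D2:**
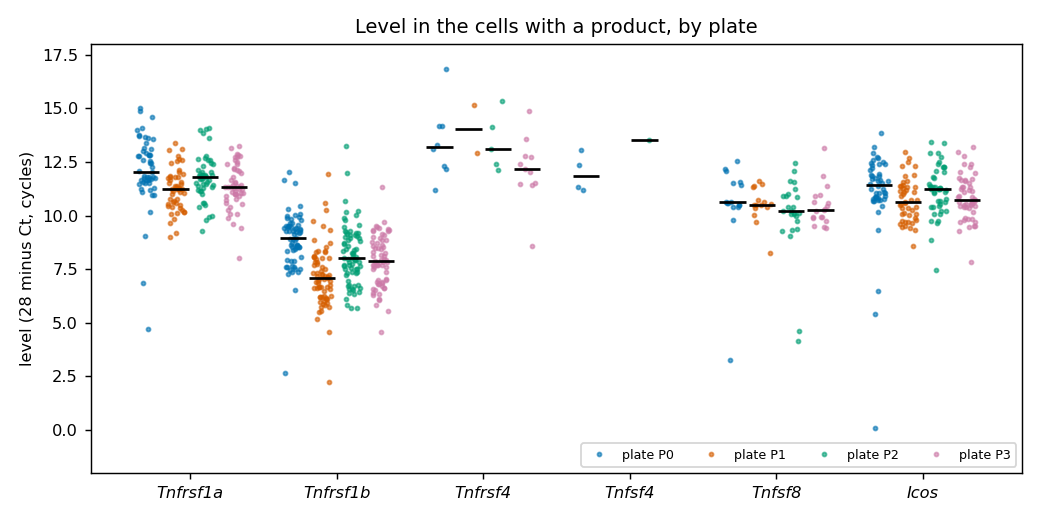
Level of each gene (28 minus Ct, cycles, vertical axis) in every cell with a product, by plate, with the plate's median as a bar. Levels are not normalized, so differences between plates may be technical, and levels are not compared between genes. Tnfsf4 had 4 cells on P0 and 1 on P2, and the medians of Tnfrsf1b ran from 7.09 on P1 to 8.96 on P0.

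The pooled wells gave a second material. Tnfrsf1b was detected in all 8 wells, at 12.20, 11.47, 12.21 and 12.48 cycles in the 20-cell wells of P0 to P3, against 1.10, 10.72, 11.92 and 11.92 in the 10-cell wells. Tnfrsf1a was detected in 3 of 4 20-cell wells, at 15.21, 14.76 and 15.26 on P0, P2 and P3, against 2.71, 13.39, 14.36 and 14.21 in the 10-cell wells. The 20-cell well of P1 had no Tnfrsf1a product, although nearly 60% of the cells of that plate did. For both receptors the 10-cell well of P0 stood far below the others. Among wells with a product, all Tnfrsf1a values of 20-cell wells lay above those of 10-cell wells, and for Tnfrsf1b the groups overlapped. How often the 59 assays tested separated in this way was not counted, so the order is not a result about Tnfrsf1a.

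Icos was at 14.91, 14.38, 15.14 and 14.30 in the 20-cell wells, against 13.09, 14.10 and 14.84 in the 10-cell wells of P1, P2 and P3, and the groups overlapped. Tnfsf8 was at 12.01, 12.45, 12.29 and 12.50 in the 20-cell wells, against 12.51, 13.87 and 12.80 in the 10-cell wells of P1, P2 and P3. Among wells with a product, every 20-cell value of Tnfsf8 thus lay below every 10-cell value. How many of the 59 assays tested separated without overlap was not counted, so this order is not a result about Tnfsf8. The 10-cell well of P0 had no product for Icos or Tnfsf8. The 20-cell minus 10-cell difference was 3.91 ± 3.00 cycles (SE) for Tnfrsf1a (limma adjusted p = 0.358), 3.17 ± 2.41 for Tnfrsf1b (0.358), 0.67 ± 0.73 for Icos (0.436) and -0.75 ± 0.67 for Tnfsf8 (0.370). Of the 59 assays tested 0% were called by limma, and 4 reached an unadjusted p under 0.05. Leaving out the 10-cell well of P0, the differences were 1.09 for Tnfrsf1a (adjusted p = 0.295) and 0.57 for Tnfrsf1b (0.412). With missing products at level 0, they were 0.14 for Tnfrsf1a and 2.52 for Tnfsf8.

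Tnfrsf4 was detected in the 20-cell well (16.90) and the 10-cell well (14.08) of P2 and in no other pooled well. From the share of single cells, a product was expected in 4.88 of the 8 pooled wells, and 2 had one. The expected number counts the 10-cell well of P0 at 62.3%, although that well had a product for only 29 assays. Tnfsf4 was detected in the 20-cell well of P1 alone, at 9.36, where no single cell had it, against 1.31 of 8 wells expected. Here too the 10-cell well of P0 was counted, at 37.9%.

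**Figure D3:**
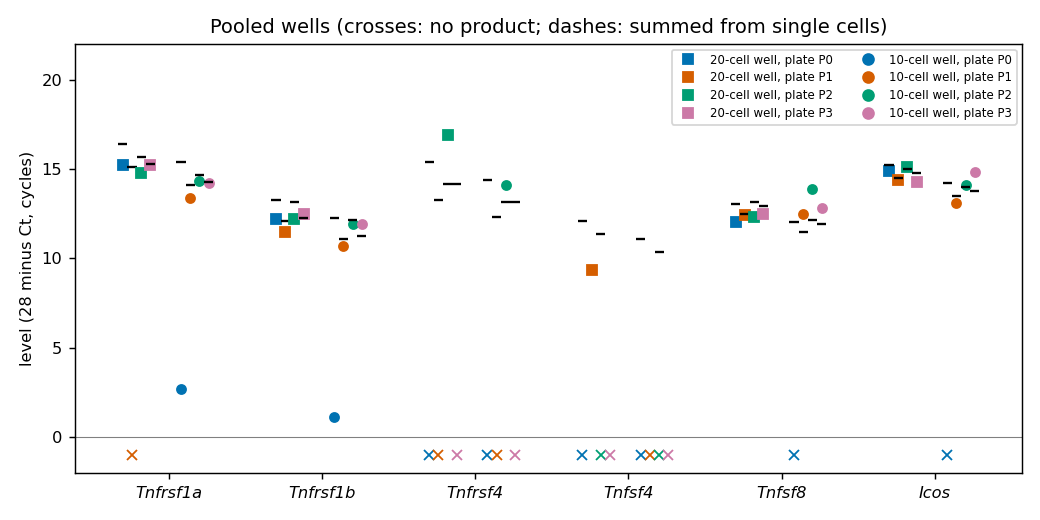
Level of each gene (28 minus Ct, cycles, vertical axis) in the 20-cell wells (squares) and, to their right, the 10-cell wells (circles) of each plate. Crosses under the zero line are wells without a product, and dashes are the levels computed from the single cells of the plate. Tnfrsf1a (2.71) and Tnfrsf1b (1.10) were lowest in the 10-cell well of P0.

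None of the tested pairs among these genes passed the test of co-detection in the same cell, against 4.59% of all 1176 pairs of the panel. They are too few to be set apart from that share, and pairs with Tnfsf4 were too rare to be tested. Co-detection was measured within each plate as a log2 odds ratio, which is above 0 where a pair is found together more often than the shares of its genes predict. Tnfrsf1a and Tnfrsf1b were both detected in 45.3%, 51.7%, 49.4% and 42.5% of cells on P0 to P3, with 46.8% of all cells expected from their shares. The mean was 47.3% ± 4.1. A further 32.0% ± 2.3 had only Tnfrsf1b, 11.8% ± 4.4 only Tnfrsf1a and 8.93% ± 1.1 neither. The log2 odds ratio was 0.23 ± 0.75 (SD over plates, limma adjusted p = 0.869). Hence 91.1% ± 1.1 of cells had Tnfrsf1a, Tnfrsf1b or both. All 26 Tnfrsf4 cells were among them, so counting Tnfrsf4 as well left that share unchanged. How many of the 26 would be among them by the shares alone was not computed.

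A ligand, Tnfsf8 or Tnfsf4, was detected in 23.1% ± 5.2 of cells (80 cells). Tnfrsf4 and its ligand Tnfsf4 were both detected in 2 cells, with 0.430 expected, and the pair was too rare to be tested. Of the 5 Tnfsf4 cells, 5 had Tnfrsf1b (3.86 expected), 4 Icos (2.77), 2 Tnfrsf4 (0.430), 1 Tnfrsf1a (2.99) and 0 Tnfsf8 (1.03). Tnfsf8 was found with Tnfrsf1b in 64 cells (59.7 expected, log2 odds ratio 0.68 ± 1.17, adjusted p = 0.568) and with Tnfrsf1a in 40 (44.1 expected, -0.46 ± 0.65, 0.686). The receptor of Tnfsf8, CD30, is not among the assays analysed here. Tnfrsf4 was found with Tnfrsf1a in 20 cells (15.4 expected, 1.17 ± 0.86, adjusted p = 0.222) and with Icos in 9 (14.7 expected, -1.42 ± 1.23, 0.175). Neither pair passed the test, and neither did any of the 10 pairs among the 5 genes that could enter it.

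Counting over the 6 genes, 12 cells had none, 66 had 1, 30 had 4, 1 had 5 and 0 had all 6. Most cells had 2 of them (36.3% ± 3.8) or 3 (32.3% ± 2.0). Cells with Tnfrsf4 had a product for 44.1 ± 0.44 other assays, against 42.2 ± 0.59 in cells without it (mean over plates of the cells' average), higher on 4 of 4 plates. For Tnfrsf1b the numbers were 41.9 ± 0.34 with and 41.0 ± 0.76 without, for Tnfsf8 42.7 ± 0.40 with and 42.1 ± 0.46 without, and each was higher on 4 of 4 plates. For Icos they were 42.5 ± 0.32 with and 41.1 ± 1.04 without, higher on 3 of 4. For Tnfrsf1a, 41.9 ± 0.43 with and 41.8 ± 0.56 without, the numbers were close to equal. The part of this in the pairs was examined by splitting the cells of a plate at the median number of assays. That number counts the genes of the pair too, and cells on 1 side of the split still differ in it.

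Of the panel's other assays, 1 was called with a member. Tnfrsf4 was found with CD284 (the file's name, a CD number that denotes Toll-like receptor 4) in 8 cells with 3.47 expected. The log2 odds ratio was 2.79 ± 1.58 (limma adjusted p = 0.0207), with 0.77, 4.19, 3.91 and 2.27 on P0 to P3. On P2 CD284 had no product in any cell, so that value comes from the pseudocount of 0.5 alone. The call was lost without P1 (2.32, adjusted p = 0.117), without P2 (2.41, 0.0765) and without P3 (2.96, 0.101). With the cells of each plate split at the median number of assays the value was 2.57. This was 1 of the 230 tested pairs that hold a member, against 4.59% of all 1176 pairs, of which 35 were positive (2.98%) and 19 negative (1.62%). With each plate centred on its mean pair, 53.5% of all calls were positive, against 64.8% as reported. At an unadjusted p under 0.05, 29 of the 230 pairs passed. Detection of Tnfrsf4 itself did not pass against no-RT wells (limma adjusted p = 0.354), and 1 of 16 of those wells had its product. That limit holds for all its pairs.

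The likeness of each gene to other assays is given by its highest and lowest log2 odds ratios over 4 plates among 48 partners, as a description. After CD284, Tnfrsf4 stood highest with the T lineage genes Cd5 (2.12 ± 1.48, 5 cells with 2.13 expected, adjusted p = 0.0548) and Cd4 (1.61 ± 1.19, 6 cells with 2.64 expected, 0.115). It stood lowest with Icos, Gfra2 (-1.27 ± 0.68) and Cd38 (-0.93 ± 0.73). Its median over the 4 tested T lineage assays was 1.36, against 0.31 over all its partners, with 0 of 4 called. Cd5, a negative regulator of lymphocyte receptors, had 3.56, 3.19, 0.54 and 1.20 with Tnfrsf4 on P0 to P3, from 2, 1, 1 and 1 cells with both. That pair was called under 6 of 15 other settings, among them without P2 (2.65, adjusted p = 0.0320) and with a pseudocount of 1 (2.19, 0.00359), and the pair with Cd4 under 4 of 15. Cd3e, Cd2 and Cd8a, other T lineage assays, were in 0, 0 and 2 cells.

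Tnfrsf1a stood highest with Tnfrsf4, Cd4 (0.97 ± 0.44) and Id2 (0.87 ± 0.26), an inhibitor of E proteins. It stood lowest with the assay named TCF (-1.46 ± 1.17), Pax5 (-1.41 ± 0.61) and Gfra2 (-1.34 ± 0.85), a neurotrophic factor receptor. Tnfrsf1b stood highest with Cd5 (1.33 ± 0.64), Bst1 (1.22 ± 1.17) and Itgax (1.04 ± 0.54), the integrin of dendritic cells, and lowest with Gata3 (-0.97 ± 0.18), Cd4 (-0.75 ± 0.66) and Ebf1 (-0.53 ± 0.48). So Cd4 was among the highest partners of 1 TNF receptor and among the lowest of the other, and neither value passed (adjusted p = 0.270 and 0.447).

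Tnfsf8 stood highest with Ccr7 (1.29 ± 0.93), a chemokine receptor of lymphocyte homing, Itgb7 (1.19 ± 0.52) and Il12rb1 (0.92 ± 0.21). It stood lowest with Klf4 (-1.59 ± 1.07), TCF (-1.36 ± 1.17) and Ly6d. Icos stood highest with Hoxa9 (1.47 ± 2.44), Cd244a (1.46 ± 0.62, adjusted p = 0.0928) and H2-M3 (1.28 ± 1.25), and lowest with Itgb7 (-1.48 ± 1.46), Tnfrsf4 and Csf1r (-0.84 ± 0.51). Itgb7 was thus among the highest partners of Tnfsf8 and the lowest of Icos, in 9 cells with 5.63 expected and in 10 cells with 14.5 expected.

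The panel held 6 further assays of the TNF and costimulatory families. Cd70, the ligand of CD27, and Cd2, an adhesion receptor of T and natural killer cells, had a product in 0 cells, 0 of 8 pooled wells and 0 of 16 no-RT wells, which allows up to 0.865% of cells. Cd86, the ligand of CD28 and CTLA-4, was detected in 32.0% ± 2.5 and Cd244a, a SLAM family receptor, in 90.8% ± 2.5. Cd5 was detected in 9.78% ± 6.2 (34 cells), and CD279 (the file's name, a CD number that denotes the inhibitory receptor PD-1) in 1.44% ± 1.4 (5 cells). By limma 4 of these passed against no-RT wells, with adjusted p of 5.91e-09 for Cd86, 1.51e-09 for Cd244a, 0.000557 for Cd5 and 0.0343 for CD279, and by the exact test 2 did, Cd86 and Cd244a. None of the 15 pairs of Cd86, Cd5 or Cd244a with a member was called, against 4.59% of all 1176 pairs. Their lowest adjusted p were those of Tnfrsf4 with Cd5 and of Icos with Cd244a, given above.

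None of the 5 genes that could be tested was called for its relation to the B lineage genes, the mean log2 odds ratio with Ebf1, Ly6d and Pax5, whereas 32.6% of the 46 assays tested were. Those 3 genes were detected in 73.8% ± 6.0, 70.3% ± 4.6 and 25.9% ± 2.0 of cells. The relation of Tnfrsf1a was -1.16, -0.80, -0.65 and -0.43 on P0 to P3, below 0 on every plate, with a mean of -0.76 ± 0.31 (limma adjusted p = 0.0770). It was called under 1 of 16 other settings, with cells split by number of assays (-0.81, adjusted p = 0.0294). Tnfrsf4 had -1.36, -0.53, -0.19 and -0.82 (mean -0.73 ± 0.50, adjusted p = 0.0949). Tnfsf8 had -1.45, -0.07, -0.44 and -0.73 (mean -0.67 ± 0.59, 0.129). Both were below 0 on every plate, and both were near 0 on 1 of them.

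Tnfrsf1b had -0.48, 0.17, -0.80 and -0.05 (mean -0.29 ± 0.43, 0.481), and Icos had -0.20, 0.09, 1.19 and 1.08 (mean 0.54 ± 0.70, 0.242). Icos was the 1 gene of the 5 with a mean above 0, carried by P2 and P3.

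**Figure D4:**
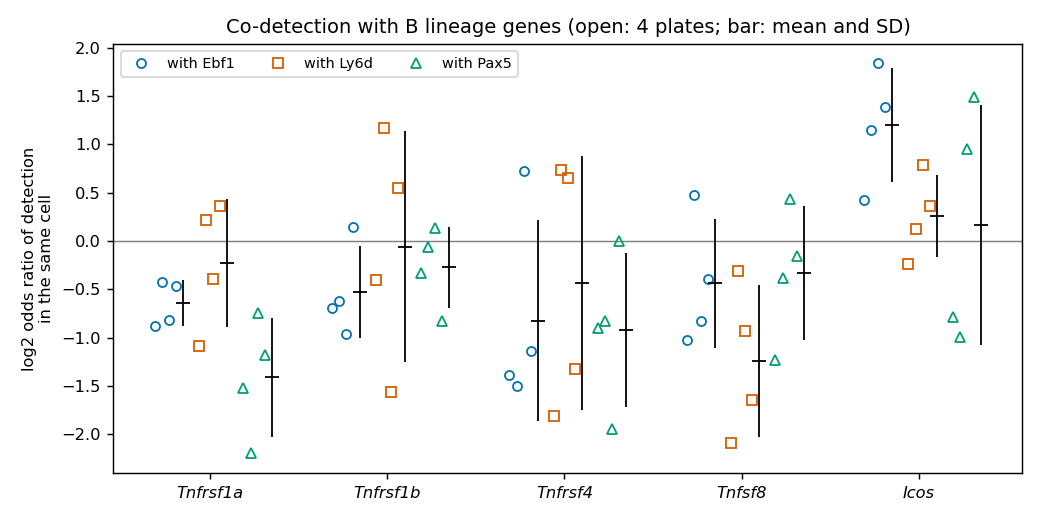
Log2 odds ratio of detection in the same cell (vertical axis) of each gene with Ebf1, Ly6d and Pax5. Open symbols are the 4 plates, in the order P0 to P3 from left to right, and the black bar beside them is the mean with its SD. Tnfrsf1a with Pax5 (mean -1.41) lay below 0 on all plates and Icos with Ebf1 (mean 1.20) above 0 on all plates, and neither pair was called.

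Gene by gene, the pair farthest below 0 was Tnfrsf1a with Pax5. Both were detected in 37 cells with 53.2 expected, at -1.52, -2.20, -0.74 and -1.18 on P0 to P3 (mean -1.41 ± 0.61, limma adjusted p = 0.107). It was called under 3 of 16 other settings: a pseudocount of 1 (adjusted p = 0.0370), cells split by number of assays (0.0378) and by reference level (0.0485). Tnfrsf1a with Ebf1 (-0.64 ± 0.23, 0.484) and with Ly6d (-0.23 ± 0.66, 0.870) lay nearer to 0. Tnfsf8 was farthest from 0 with Ly6d, in 41 cells with 52.4 expected (-1.24 ± 0.78, adjusted p = 0.175), below 0 on every plate. Icos was farthest with Ebf1, in 45.2% of cells with 41.1% expected (1.20 ± 0.59, adjusted p = 0.173), above 0 on every plate.

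By the number of the 3 B lineage genes detected in a cell, 0, 1, 2 or 3 (62 cells with none, 67 with 1, 87 with all 3 and the rest with 2), Tnfrsf1a was detected in 66.3% ± 9.0, 58.7% ± 10.1, 66.2% ± 7.9 and 41.6% ± 7.5. In the cells with all 3 its shares were 40.9%, 31.8%, 50.0% and 43.5% on P0 to P3, against 75.0%, 54.5%, 71.4% and 64.3% in the cells with none. The cells with 1 of them were at 50.0% on P2 and P3, so their plates met those of the cells with all 3. Of the 90 cells with Pax5, 87 had all 3 genes, so that class is nearly the Pax5 cells. Tnfrsf4 was detected in 2.22% ± 2.6 of cells with all 3, or 2 of 87, and in 9.45% ± 8.6, 9.83% ± 9.5 and 9.10% ± 5.3 of those with 0, 1 and 2. Tnfsf8 was detected in 33.1% ± 4.8, 24.2% ± 14.8, 17.5% ± 6.0 and 18.8% ± 11.3 with 0, 1, 2 and 3 of them.

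Icos was detected in 40.2% ± 11.6, 55.8% ± 11.3, 61.3% ± 4.3 and 57.4% ± 17.4 of cells with 0 to 3 B lineage genes. The mean was lowest in cells with none, but the plates overlapped, and on P0 and P3 another class was lower. Tnfrsf1b was at 84.0% ± 10.0, 75.9% ± 6.4, 79.3% ± 4.0 and 77.3% ± 7.3, with overlapping ranges over plates. Tnfsf4 was in 1, 1, 3 and 0 cells. The cells with 0, 1, 2 and 3 B lineage genes had a median of 42, 40, 41 and 40 other assays, and a median reference level of 15.49, 15.40, 15.19 and 15.22, a range of 2 assays and under 0.5 cycles. These classes hold the same cells as the pairs and were not tested again.

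**Figure D5:**
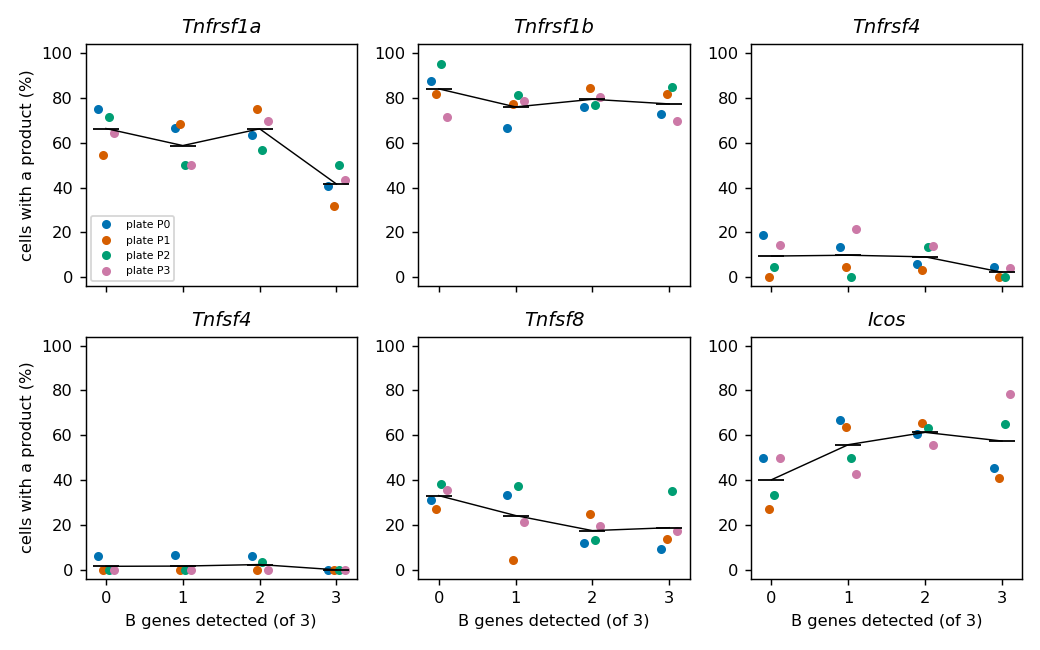
Share of cells with a product of each gene (%, vertical axis) by how many of Ebf1, Ly6d and Pax5 the cell had (horizontal axis). Points are plates and the line joins their means. Tnfrsf1a was at 41.6% in cells with all 3, against 66.3% in cells with none, and Icos at 57.4% against 40.2%.

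Among cells with a product, none of the levels tested for these genes was called different by Ebf1 or Pax5. In cells with Ebf1 the level of Tnfsf8 averaged 10.19 ± 0.35 cycles, against 10.76 ± 0.45 in cells without it (mean ± SD over 4 plates). The difference was -0.57 ± 0.47 (limma adjusted p = 0.114), below 0 on 3 of 4 plates. The level of Icos was 11.02 ± 0.26 with Ebf1 and 10.71 ± 0.32 without (0.31 ± 0.43, adjusted p = 0.301). For Tnfrsf1b it was 8.07 ± 0.73 with and 7.84 ± 0.62 without (0.23 ± 0.20, 0.301), and for Tnfrsf1a 11.56 ± 0.49 with and 11.76 ± 0.17 without (-0.20 ± 0.40, 0.491). None of these 4 genes was called, against 11.3% of the 53 assays tested.

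In cells with Pax5 the level of Tnfrsf1a was 11.38 ± 0.38, against 11.68 ± 0.40 in cells without it. The difference was -0.35, -0.24, -0.25 and -0.36 cycles on P0 to P3, below 0 on every plate with a small spread (mean -0.30 ± 0.06), and limma, which draws each spread toward that of the other assays, gave an adjusted p of 0.288. With medians in place of means the difference was 0.0060 cycles (limma adjusted p = 0.973). For Tnfrsf1b the level was 8.14 ± 1.11 with Pax5 and 7.98 ± 0.57 without (0.16 ± 0.59, adjusted p = 0.810), and for Icos 11.18 ± 0.48 with and 10.89 ± 0.20 without (0.29 ± 0.45, 0.509). None of the 3 was called, against 19.3% of the 57 assays tested. Tnfsf8 had too few positive cells beside Pax5 on some plate, and Tnfrsf4 and Tnfsf4 had too few in both comparisons.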

How the data were processed

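The authors deposited 1 table of Ct values without normalization, and no other unit was used. Sorted cells were lysed and frozen in the plate, per the labels' protocols, and their RNA was reverse transcribed and pre-amplified in the same well with 96 TaqMan assays. Products were read on a Fluidigm BioMark HD. How the Ct threshold was set is not given in the sources used here. Of the 36864 values, 58.2% were 40, taken as no product. A gene without a product is one not detected, at a sensitivity unknown for each assay.

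Assay names were matched to RefSeq genes of GRCm38.p6, 47 by symbol and 34 by synonym. CD252 and CD278 were named by their CD names, and 13 assays keep the file's name. Single-cell wells entered with over 50% of the 4 reference assays detected and with no fewer than 50% of the assays of the plate's median well. That removed 13 of 360 wells, among them 10 identical columns without any product.

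Apart from the exact test on wells, a conditional test within plates, all tests were made in limma 3.58.1 (R 4.3.3) with 1 value per plate (n = 4), Benjamini-Hochberg adjustment over all assays or pairs of a comparison, and a threshold of 0.05. Shares were compared after an arcsine square-root transform. Pairs were formed from assays found in 5% to 95% of cells, leaving out those with a product in 4 or more of the 16 no-RT wells, with 0.5 added to each count. The scripts were tested on simulated data. The genes and lists were chosen with earlier results of these data known, and Cd70 and CD90.2 were added to the lists once the panel was seen. Genes named beside the 6 are Ebf1, Ly6d, Pax5, the 3 highest and 3 lowest partners, called pairs, the family's other assays, neighbours in share, and marker genes.

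The plate is a batch that the groups share, per the labels, and so pairs them. Across assays, the departures of same-plate wells from the mean of their group had correlations of -0.27 to 0.15 (cells with no-RT wells) and of -0.26 to 0.18 (20-cell with 10-cell wells). Alternatives changed the Ct limit, quality control, filters, pseudocount, scaling, test, block and plates.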

Additional observations from a re-analysis of the deposited data

Results flagged for a closer look

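Of 38 groups of 4 plates or wells examined, 3 held a value that stood apart from the other 3 by Dixon's criterion, which chance alone meets in about 1 of 20 groups. The level of Tnfrsf1a in the 10-cell well of P0 was 2.71 cycles, against 13.39, 14.36 and 14.21 in the 10-cell wells of P1 to P3. The level of Tnfrsf1b in the same well was 1.10, against 10.72, 11.92 and 11.92. That well had a product for 29 assays. For Tnfrsf1b with Icos, the log2 odds ratio on P1 was -1.02, against -0.09, -0.19 and -0.23 on P0, P2 and P3.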

How the results depend on the processing

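Against 74 detection calls, the exact test gave 46, the upper limit 47, and the paired fit with the plate as a replicate block 73. Between 20-cell and 10-cell wells, that block gave 0 calls, as the fit without it did, and it changed no call of the 6 genes. Of the tested pairs, 4.59% were called as reported, 0.935% (without P1) to 3.66% with 1 plate left out, 21.8% with no cell left out, 9.18% with a pseudocount of 1, 23.4% with assays in 1% to 99% of cells, 8.16% with cells split by number of assays and 8.93% by reference level. The 15 calls of the relation to B lineage genes became 23 with no cell left out and 26 with assays in 1% to 99% of cells. The 6 calls of level by Ebf1 became 1 to 10 with 1 plate left out, 3 with no cell left out and 3 relative to the reference assays, and the 11 by Pax5 became 5 to 10 with 1 plate left out. The 0 calls of 20-cell against 10-cell wells became 1 at Ct below 25, 1 without the 10-cell well of P0, and 0 to 1 with 1 plate left out. The cause was not tested in any of these.

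Among the pairs named, single settings gave 24 calls not made in the reported fit and lost 3, all of Tnfrsf4 with CD284. None of the values that changed sign was called. With 1 plate left out, the log2 odds ratio ran from -0.061 to 0.51 for Tnfrsf1a with Tnfrsf1b, -0.42 to 0.063 for Tnfrsf1a with Ly6d, -0.47 to 0.44 for Tnfrsf1b with Ly6d, -0.82 to 0.023 for Tnfrsf4 with Ly6d and -0.28 to 0.55 for Icos with Pax5. Tnfrsf1b with Tnfrsf4 became -0.059 with a pseudocount of 1, -0.21 with cells split by number of assays and -0.45 by reference level. With no cell left out, Tnfrsf1b became 0.087 with Icos, 0.35 with Ebf1, 0.60 with Ly6d and 0.044 with Pax5, its relation to the B lineage genes became 0.33, and Tnfrsf1a with Ly6d became 0.14. Tnfrsf1b with Ly6d was 0.0071 with a pseudocount of 1 and 0.076 by reference level. With medians, the level of Tnfrsf1a differed by 0.034 by Ebf1 and 0.0060 by Pax5. Relative to the reference assays, the 20-cell minus 10-cell difference was -0.95 for Tnfrsf1a, -1.80 for Tnfrsf1b and -0.47 for Icos. With missing products at level 0, that of Tnfsf8 was 2.52.

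Precision is limited by 4 plates, by 16 no-RT wells, and, for Tnfrsf4 and Tnfsf4, by 26 and 5 cells. Leaving out the 4 cells with late reference assays, a choice made after seeing the data, changed no call of a gene or pair named here.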
